A study of Mus musculus with 6 samples.

Results

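Ribosome assembly genes encode the proteins that make, fold, modify and cut ribosomal RNA (rRNA) and load it with ribosomal proteins. A list of 46 such genes was taken by name from the deposited RNA-seq table of 13935 genes, which holds all 46, the gene Utp4 under its older symbol Cirh1a. The rule goes by gene name alone, but the members were chosen with earlier results of these data known. All 46 passed the filter on low counts. The list spans 4 genes of RNA polymerase I transcription, 3 box C/D and 4 box H/ACA proteins, 15 factors of the small and 15 of the large subunit, and 5 general nucleolar factors.

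The series names its cells LT-HSCs, the long-term stem cells of the blood, which are rare and sustain blood formation over a lifetime. The sample labels give a wider type, stem and progenitor cells of mouse bone marrow. By those labels, 3 mice carried a knockout of Mel18 (replicates 4 to 6) and 3 mice were wild type (replicates 1 to 3). Mel18 is the protein of Pcgf2, a subunit of polycomb repressive complex 1. The series text describes the knockout as conditional in the blood system, and the table's header names the comparison Cre+ against Cre-, so effects of the Cre recombinase and of the lost gene cannot be told apart. Each library is labelled as a mouse of its own. The sources used here give no Cre driver, sorting gate, age, sex or strain.

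In the nucleolus, RNA polymerase I transcribes a long precursor that holds most of the rRNA. Small nucleolar ribonucleoproteins (snoRNPs) then mark it: those of the box C/D class add methyl groups and those of the box H/ACA class turn uridines into pseudouridines. Large scaffolds of assembly factors cut the precursor and build the small and the large subunit along separate paths. Blood stem cells are known for a low rate of protein synthesis, and many of these genes are known targets of the transcription factor Myc.

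Total counts were 33537679 to 37180701 in the libraries labelled knockout and 26469336 to 30950057 in the wild-type libraries, and 3 counts corresponded to 0.0782 to 0.115 CPM (counts per 1000000 counts of a library, with its total scaled by the TMM factor). This limit covers counting error only. Pcgf2 had 72, 72 and 107 counts in the libraries labelled knockout, against 43, 68 and 54 in the wild-type libraries. Scaled to depth these were 1.88, 1.88 and 3.36 CPM, against 1.47, 2.61 and 1.70 CPM (log2 fold change 0.30, SE 1.14, adjusted p = 0.952). The gene was not fitted lower in the libraries labelled knockout, its CPM overlapped between the groups, and every direction given here is between libraries by their labels. On the first principal component of all genes (39.0% of the variance) knockout replicate 6 lay at -167, far from the remaining 5 libraries at -7.75 to 71.6. Its label ends in library number 37, and those of the others in 6 to 10.

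No ribosome assembly gene passed the test between the libraries labelled knockout and the wild-type libraries (edgeR's quasi-likelihood test, adjusted p below 0.05 over 12603 genes). In that test 0.143% of all genes were called, 0.0159% higher and 0.127% lower. The smallest adjusted p among the 46 members was 0.204, for Nolc1. At an unadjusted p below 0.05 there were 12 members (26.1%), 11 lower and 1 higher, where 11.9% of all genes had such a p, 6.51% lower and 5.36% higher. DESeq2 called 2 members lower, Nop56 and Nolc1, beside 4.23% of all genes, 2.60% lower and 1.64% higher. The likelihood ratio test of edgeR called Nolc1 alone, beside 3.44% of all genes, 2.29% lower and 1.15% higher. Its exact test also called Nolc1 alone, beside 3.21% of all genes, 2.15% lower and 1.06% higher. Limma-voom called 0 members, and 0 genes higher and 0 lower over the whole table. At an unadjusted p below 0.05 it had 14 members lower and 1 higher, beside 14.1% of all genes, 8.43% lower and 5.66% higher.

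The fitted values of the list lay below those of the whole table. Of the 46 members 37 were fitted lower and 9 higher in the libraries labelled knockout, with a median log2 fold change of -0.39, against -0.01 over all 12603 genes, of which 6350 were fitted lower. In 17 of the 46 members every library labelled knockout lay below every wild-type library, where this held for 11.3% of all genes. In 2 members (4.35%), Imp3 and Nip7, every library labelled knockout lay above, where this held for 10.1% of all genes. These shares describe a list chosen with earlier results of these data known and are not a test of it. The 95% interval of the log2 fold change lay within 1 of 0, a change of less than 2-fold either way, for 20 members (43.5%), where this held for 22.9% of all genes. For the other 26 members the interval held differences of 2-fold or more. The share depends on the SE, whose median was 0.28 over the members and 0.44 over all genes.

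**Figure D1:**
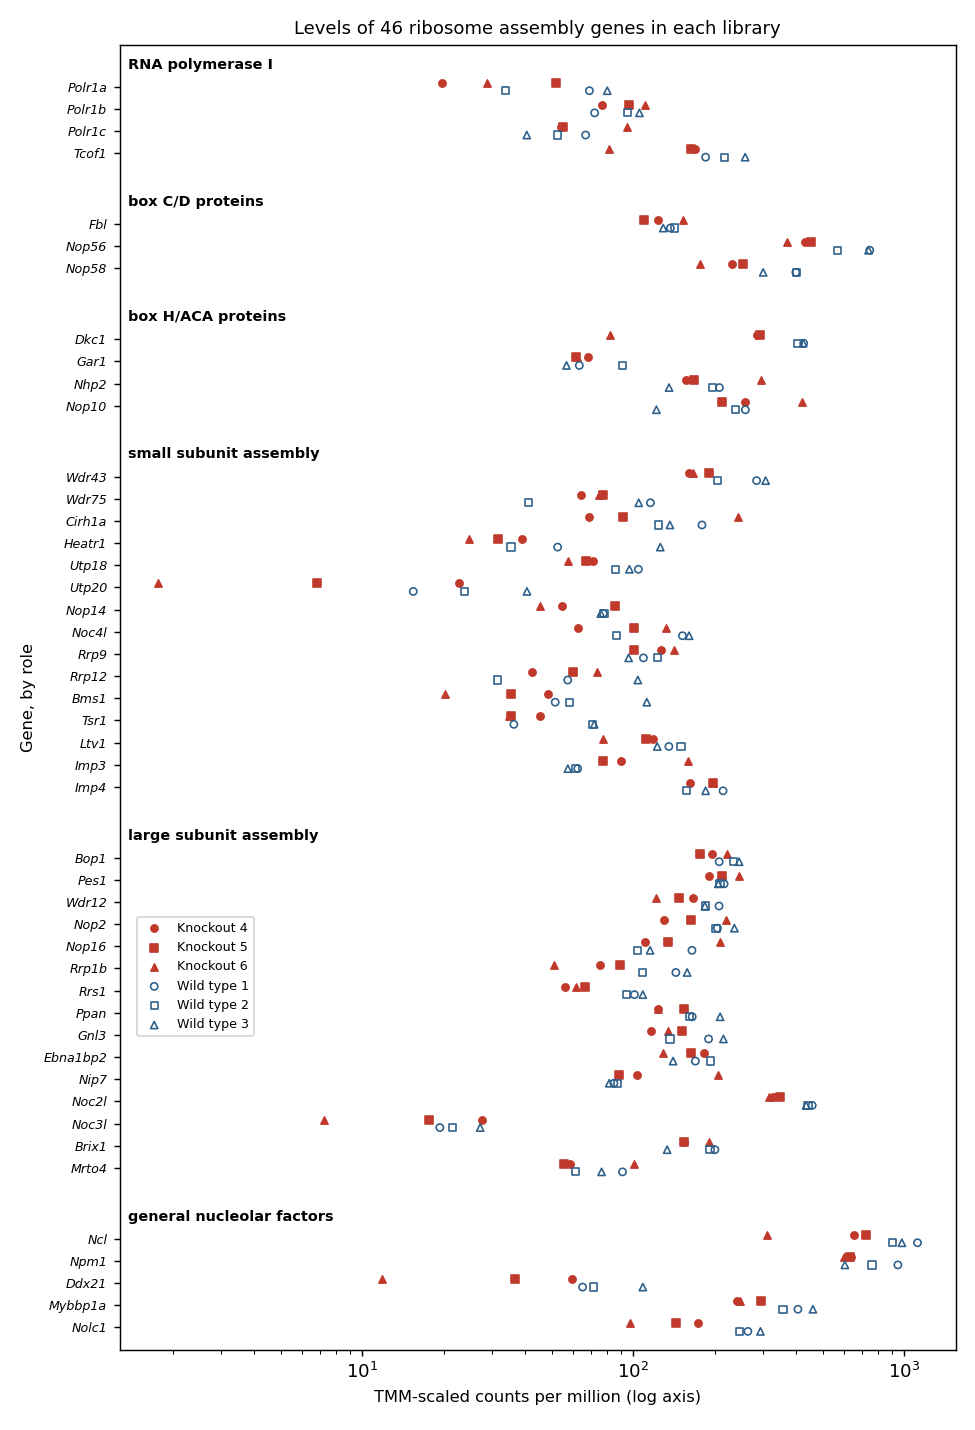
Level of each of the 46 genes in every library, in CPM on a log axis, grouped by role. Filled red symbols are the 3 libraries labelled knockout and open blue symbols the 3 wild-type libraries. In 17 genes all red symbols lie left of all blue ones, and in 2, Imp3 and Nip7, they lie right of them.

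The 46 genes together took 0.704%, 0.743% and 0.657% of all counts in knockout replicates 4, 5 and 6, against 0.941%, 0.841% and 0.944% in wild-type replicates 1, 2 and 3, and the groups did not overlap. In these bulk libraries fewer cells of a type and less RNA per cell cannot be told apart. Lists of other genes differed along with the members. The 18 proliferation genes, which include Mki67 and the Mcm helicase subunits, summed to 2803 to 3506 CPM in the libraries labelled knockout, against 5879.7 to 6799 CPM in the wild-type libraries, with all 18 fitted lower and 0 called. The 12 genes of lineage-primed progenitors, such as Mpo and Cd48, summed to 519 to 1670.4 CPM, against 6271 to 14731 CPM, with all 12 fitted lower and 3 called. The 15 LT-HSC genes summed to 2461.4 to 4151 CPM, against 1144 to 2460.7 CPM, which barely missed overlapping, with all 15 fitted higher and 1, Procr, called. The part of proliferation, lineage priming and stem-cell content in the lower levels of ribosome assembly genes was not tested.

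Genes of mature cells were also summed. T and NK cell genes (6 of 6 listed) summed to 140.3 to 266 CPM in the libraries labelled knockout, against 296 to 561 CPM, nearly all of it Nkg7. Cd3e was at most 0.346 CPM, against at most 0.720 CPM, while Tcf7 had 0 counts in the libraries labelled knockout and Cd8a in all but 1 wild-type library. B cell genes (5 of 6 listed) summed to 65.0 to 143 CPM, against 89.6 to 251 CPM, and Ebf1 had 0 counts in the libraries labelled knockout. Monocyte genes (6 of 6 listed) summed to 10.3 to 113 CPM, against 297 to 321 CPM, with 1 gene called lower. Neutrophil genes (6 of 6 listed) summed to 176 to 569 CPM, against 87.8 to 653 CPM. Erythroid genes (4 of 6 listed) summed to 53.6 to 206 CPM, against 49.8 to 111 CPM, and stromal genes (4 of 6 listed) to 51.5 to 97.2 CPM, against 59.0 to 173 CPM. Of these lists, only those of T and NK cells and of monocytes had groups that did not overlap.

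Levels can be compared between genes only per length of exon. Npm1, the nucleolar chaperone nucleophosmin, had 362 CPM per kb in the libraries labelled knockout and 448 CPM per kb in the wild-type libraries. Nop10, the smallest H/ACA protein, had 402 against 279.5 CPM per kb, and Nop56 of the C/D core 220.5 against 361 CPM per kb. At the other end stood Utp20, a very large scaffold protein of the small subunit, at 1.18 against 3.01 CPM per kb, Noc3l at 4.40 against 5.71 CPM per kb and Polr1a at 5.49 against 9.98 CPM per kb. The median gene of the H/ACA group had 142 against 164 CPM per kb, that of the C/D group 112 against 186, that of the large subunit group 62.6 against 66.0 and that of the small subunit group 27.7 against 36.7.

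**Figure D2:**
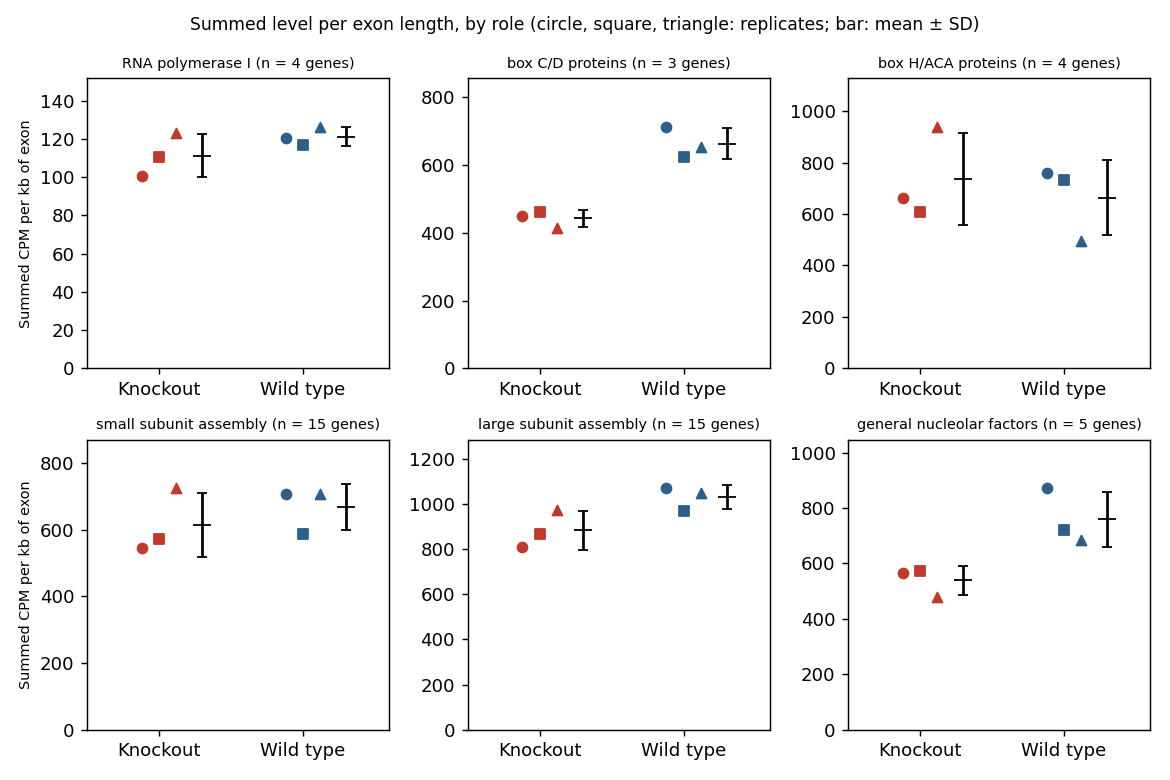
Summed level per exon length (CPM per kb) of each role group in every library, with the libraries labelled knockout on the left in red and the wild-type libraries on the right in blue. Circles, squares and triangles are the replicates in order of their number, bars give the mean ± SD over 3 libraries, and the C/D and general nucleolar groups separate while the other 4 overlap.

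Promoter sequence from RefSeq (build GRCm38.p6, 250 bases before to 50 after the start) was matched to 40 of 46 members, in 44 windows. Tcof1, Fbl, Rrp12, Bop1, Rrs1 and Npm1 were not matched. The motif CACGTG, the E-box that Myc and Max can bind, which reads the same on both strands, lay in 10 member windows (22.7%), where 7.15% of all 32851 windows held it. The motif CCGGAAGT, the core letters bound by ETS factors, searched on both strands, lay in 14 member windows (31.8%), where 3.89% of all windows held it. For Nrf1 only a single fixed form of the motif was searched. That form lay in 0 member windows, where 0.971% of all windows held it. Sites that differ from it by any base were not searched, so the value does not show that these promoters lack Nrf1 sites. Of the exact forms searched, only the motif in capitals was found in each stretch printed here, so none of these forms overlapped. Members with an E-box had a median log2 fold change of -0.48 and those without -0.39, and members with the ETS motif had -0.14 and those without -0.43. A match describes letters and does not show binding.

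The 4 stretches below come from members whose groups did not overlap, 3 below and Nip7 above the wild-type libraries. They were chosen to show both motifs, in capitals, from 120 bases before to 30 bases after the start. They lie at chr17:71616095-71616244 (plus strand) for Wdr43, chr11:93885737-93885886 (minus) for Utp18, chr4:156235895-156236044 (plus) for Noc2l and chr8:107056757-107056906 (plus) for Nip7. The E-box begins 18 bases into the transcript of Wdr43 and 20 bases before the start of Utp18, and the ETS motif begins 2 bases before the start of Noc2l and 103 before that of Nip7.
Wdr43: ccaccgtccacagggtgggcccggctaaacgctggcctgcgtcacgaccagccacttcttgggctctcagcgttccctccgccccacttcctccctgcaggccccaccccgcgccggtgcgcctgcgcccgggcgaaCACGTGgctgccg
Utp18: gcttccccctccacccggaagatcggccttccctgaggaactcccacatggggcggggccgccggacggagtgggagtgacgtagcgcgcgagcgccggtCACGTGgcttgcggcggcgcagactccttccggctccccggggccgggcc
Noc2l: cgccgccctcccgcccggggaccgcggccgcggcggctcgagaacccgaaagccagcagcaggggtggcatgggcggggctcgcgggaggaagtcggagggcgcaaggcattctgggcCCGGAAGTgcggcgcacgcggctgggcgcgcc
Nip7: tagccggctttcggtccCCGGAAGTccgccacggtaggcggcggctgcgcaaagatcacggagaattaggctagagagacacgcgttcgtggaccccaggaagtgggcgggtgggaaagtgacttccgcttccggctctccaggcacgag

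Among the genes of RNA polymerase I transcription, 2 of 4 were fitted lower, with a median log2 fold change of -0.31, which was -0.033 with the trend of each library on exon length removed and -0.20 without knockout replicate 4 or without wild-type replicate 3. Their summed level per length averaged 111 ± 11.2 CPM per kb in the libraries labelled knockout and 121 ± 4.90 CPM per kb in the wild-type libraries (SD, n = 3 each), and the groups overlapped. Tcof1, or treacle, a nucleolar scaffold that supports transcription of rRNA genes, had 169, 164 and 81.7 CPM in knockout replicates 4, 5 and 6, against 185, 217 and 259 CPM in wild-type replicates 1, 2 and 3. The groups did not overlap. Knockout replicate 6 lay at -1.03 on the log2 scale relative to the other libraries labelled knockout, and those lay at -0.41 relative to the wild-type libraries (log2 fold change -0.67, SE 0.31, adjusted p = 0.449, and -0.41 without that library). Polr1a, the largest subunit of the polymerase, had 19.7, 52.0 and 28.9 CPM in the libraries labelled knockout, against 68.9, 33.8 and 80.2 CPM in the wild-type libraries. Wild-type replicate 2 fell inside the range of the other group (log2 fold change -0.86, SE 0.46, adjusted p = 0.506). Polr1b, which with Polr1a forms the catalytic centre, had 76.7, 96.9 and 110.4 CPM, against 72.0, 95.3 and 105 CPM, with an interval of the log2 fold change from -0.52 to 0.64. Polr1c, an assembly subunit shared with RNA polymerase III, had 54.3, 55.2 and 95.1 CPM, against 66.8, 52.7 and 40.5 CPM, so that only knockout replicate 6 lay above all wild-type libraries (log2 fold change 0.36, SE 0.33, and 0.04 without it).

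The box C/D proteins hold the guide RNAs that direct methylation of rRNA. All 3 members were fitted lower, with a median log2 fold change of -0.71, and their summed level per length averaged 443 ± 24.1 CPM per kb in the libraries labelled knockout and 664 ± 45.9 CPM per kb in the wild-type libraries (SD, n = 3 each), without overlap. Nop56, a core scaffold of the particle, had 430.1, 453 and 370.0 CPM in knockout replicates 4, 5 and 6, against 746, 566 and 739 CPM in wild-type replicates 1, 2 and 3. Its partner Nop58 had 231, 254 and 176 CPM in the libraries labelled knockout, against 398, 400.5 and 302 CPM in the wild-type libraries. Both separated by group in all 6 libraries (log2 fold changes -0.71, SE 0.22, and -0.73, SE 0.23), and both missed the threshold with adjusted p = 0.248 and 0.266. Without knockout replicate 6 the values were -0.63 and -0.60. Fbl, or fibrillarin, the methyltransferase of the same particle, overlapped between the groups: it had 123, 109.5 and 152 CPM, against 137, 142 and 129 CPM, and its log2 fold change of -0.08 had an interval from -0.57 to 0.41. Without knockout replicate 6 the value was -0.22, and the other libraries labelled knockout lay below all wild-type libraries.

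In the box H/ACA group, 2 of 4 members were fitted lower, and the median log2 fold change was 0.03. Their summed level per length averaged 736 ± 178 CPM per kb in the libraries labelled knockout and 663 ± 146 CPM per kb in the wild-type libraries (SD, n = 3 each), with overlap. Dkc1, or dyskerin, the pseudouridine synthase of the particle, had 287, 293 and 81.8 CPM in knockout replicates 4, 5 and 6, against 426, 406 and 424 CPM in wild-type replicates 1, 2 and 3. The groups did not overlap, but replicate 6 lay at -1.83 on the log2 scale relative to the rest of its group, and the log2 fold change of -0.92 (SE 0.43, adjusted p = 0.451) was -0.53 without it. Its 3 small partners overlapped between the groups. Nop10 had 258, 213 and 419 CPM, against 259, 238 and 122 CPM, with the extremes in knockout replicate 6 and wild-type replicate 3 (log2 fold change 0.52, SE 0.36, adjusted p = 0.617, and 0.19 without knockout replicate 6). Nhp2 had the same 2 libraries at its ends, with 157, 167 and 295 CPM, against 208, 196 and 136 CPM (log2 fold change 0.20, and -0.15 without knockout replicate 6). Gar1, the fourth core protein, had 67.9, 61.5 and 61.9 CPM, against 63.3, 91.5 and 56.7 CPM (log2 fold change -0.14, SE 0.27).

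The median of the C/D group thus lay below that of the H/ACA group, at -0.71 against 0.03 with all 6 libraries and -0.60 against -0.14 without knockout replicate 6. With 3 and 4 genes and no test of the difference, this is a description. The list leaves out Snu13, a further box C/D protein, counted under its older symbol Nhp2l1. Snu13 was fitted higher, with a log2 fold change of 0.14 (SE 0.26), and 0.0003 without knockout replicate 6. Its groups overlapped. The catalytic subunits ranked the other way from their groups, with the methyltransferase Fbl at -0.08 and the pseudouridine synthase Dkc1 at -0.92, and at -0.22 and -0.53 without knockout replicate 6.

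Most small subunit factors act in the processome, which assembles on the nascent precursor and cuts it. Of 15 members 13 were fitted lower. Without overlap, 4 lay below the wild-type libraries (26.7%, beside 11.3% of all genes) and 1 above (6.67%, beside 10.1% of all genes). The median log2 fold change was -0.41, and -0.24 without knockout replicate 4. Wdr43, a member of the early subcomplex that also binds the transcribed gene, had 160.4, 190.3 and 167 CPM in knockout replicates 4, 5 and 6, against 285, 205 and 308 CPM in wild-type replicates 1, 2 and 3 (log2 fold change -0.63, SE 0.23, adjusted p = 0.329). Utp18, a subunit of another processome subcomplex, had 71.3, 67.0 and 57.4 CPM in the libraries labelled knockout, against 104, 86.2 and 96.8 CPM in the wild-type libraries (log2 fold change -0.55, SE 0.23, adjusted p = 0.388). Neither gene overlapped between the groups, although for both the gap was smaller than the range of the wild-type libraries. Promoter stretches of both are printed above. Bms1, a GTPase of the processome, had 48.5, 35.3 and 20.2 CPM, against 51.5, 58.3 and 112 CPM, so that the gap between the groups was small beside the spread within each (log2 fold change -1.09, SE 0.43, adjusted p = 0.366). Utp20 had the lowest fold change of the list, at -1.35 (SE 0.84, adjusted p = 0.577, and -0.85 without knockout replicate 6), and 22.7, 6.84 and 1.76 CPM, against 15.4, 23.8 and 40.5 CPM. Its libraries spanned 23.0-fold from knockout replicate 6 to wild-type replicate 3, and the groups overlapped. Imp3, which joins the guide RNA of the processome to the precursor, had the highest fold change of the list, with 90.5, 77.3 and 159 CPM, against 62.4, 61.3 and 57.4 CPM (log2 fold change 0.85, SE 0.31, adjusted p = 0.326). All libraries labelled knockout lay above all wild-type libraries, and the value was 0.47 without knockout replicate 6. Its partner Imp4, in the same complex, had 162, 196 and 197 CPM, against 215, 157 and 185 CPM, with an interval from -0.50 to 0.49. The other 9 members had log2 fold changes from -1.16 (Heatr1, a scaffold of the early subcomplex) to 0.17 (Rrp9, a protein of the C/D particle that guides the cuts), of which Ltv1, a late factor of the small subunit, separated by group. Cirh1a lay at 68.9 and 92.0 CPM in knockout replicates 4 and 5, below all wild-type libraries (179, 124 and 137 CPM), and at 243 CPM in replicate 6, above them all. Its log2 fold change was -0.12 with that library and -0.87 without it.

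Large subunit factors bring together the rRNA and proteins of the other subunit. Of 15 members 12 were fitted lower. Without overlap, 5 lay below the wild-type libraries (33.3%, beside 11.3% of all genes) and 1 above (6.67%, beside 10.1% of all genes). The median log2 fold change was -0.32, beside -0.41 for the small subunit, a difference that was not tested. With the trend on exon length removed the medians were -0.11 for the large and -0.32 for the small subunit, and without knockout replicate 4 they were -0.20 and -0.24. Their summed level per length was 808 to 976 CPM per kb in the libraries labelled knockout, against 972 to 1071 CPM per kb, and that of the small subunit group 545 to 725 CPM per kb, against 587 to 708 CPM per kb. Rrs1, which helps bring the small rRNA of the large subunit into the particle, had 55.8, 66.6 and 61.2 CPM in knockout replicates 4, 5 and 6, against 101, 94.4 and 108 CPM in wild-type replicates 1, 2 and 3. The gap between the groups exceeded the range within each, and the log2 fold change of -0.73 (SE 0.22, adjusted p = 0.248) was the same without knockout replicate 6. Rrp1b, a nucleolar protein of the large subunit path, had 75.6, 89.3 and 50.8 CPM in the libraries labelled knockout, against 144, 108 and 158 CPM in the wild-type libraries (log2 fold change -0.93, SE 0.28, adjusted p = 0.248). Noc2l, which escorts early large subunit particles, had 329, 349 and 317 CPM, against 458, 441 and 434 CPM (log2 fold change -0.42, SE 0.19, adjusted p = 0.425). Of these 3 genes Noc2l had the smallest fold and the smallest SE, and 21.5% of its exon bases overlap exons of Samd11 on the opposite strand, which reads that do not mark strand cannot tell apart. Nip7, also of the large subunit path, was the exception, with 103, 88.8 and 205 CPM, against 84.9, 87.5 and 81.6 CPM (log2 fold change 0.64, SE 0.33, adjusted p = 0.487). All 3 libraries labelled knockout lay above, replicate 5 by little, and the value was 0.18 without replicate 6.

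The PeBoW complex, made of Pes1, Bop1 and Wdr12, is needed to mature the large subunit rRNA. Pes1 had a log2 fold change of 0.04 (interval -0.42 to 0.49) and Bop1 of -0.21 (interval -0.68 to 0.25). Wdr12 had 166, 148 and 122 CPM in the libraries labelled knockout, against 207, 185 and 184 CPM in the wild-type libraries, without overlap (log2 fold change -0.40, SE 0.21, adjusted p = 0.494). The intervals of all 3 lay within 1 of 0, as did those of 11 of the 15 large subunit members (73.3%). This held for 4 of the 15 small subunit members (26.7%) and for 22.9% of all genes. The median SE was 0.24 for the large and 0.34 for the small subunit members, and 0.44 over all genes. Exons summed to 4000 bases or more in 4 of the small subunit members and 1 of the large subunit members. The other 8 members of the group ranged from -0.43 for Gnl3, or nucleostemin, a GTPase of the nucleolus, to 0.24 for Nop16, and Ppan separated by group at -0.42.

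The general nucleolar factors were all fitted lower, 5 of 5, with a median log2 fold change of -0.84. In 4 of them (80%) every library labelled knockout lay below every wild-type library, where this held for 11.3% of all genes. The median was -0.50 with the trend on exon length removed. Their summed level per length averaged 539 ± 53.6 CPM per kb in the libraries labelled knockout and 759 ± 98.7 CPM per kb in the wild-type libraries (SD, n = 3 each). Nolc1, a chaperone of snoRNPs that binds polymerase I, had 174, 144 and 97.1 CPM in knockout replicates 4, 5 and 6, against 265, 247 and 295 CPM in wild-type replicates 1, 2 and 3 (log2 fold change -0.96, SE 0.26, interval -1.55 to -0.37, adjusted p = 0.204). This was the smallest p of the list, and the value was -0.76 without knockout replicate 6. Ncl, or nucleolin, an abundant RNA-binding protein of the nucleolus, had 652, 721 and 311 CPM in the libraries labelled knockout, against 1119, 908 and 980.1 CPM in the wild-type libraries (log2 fold change -0.84, SE 0.32, adjusted p = 0.358, and -0.55 without replicate 6). Mybbp1a, a nucleolar regulator of rRNA transcription, had 241, 296 and 247 CPM, against 405, 357 and 460.3 CPM, with replicate 6 inside its group (log2 fold change -0.64, SE 0.21, adjusted p = 0.276). Ddx21, a helicase that links both steps of transcription and processing, had 59.3, 36.5 and 11.8 CPM, against 65.0, 71.6 and 109 CPM (log2 fold change -1.19, SE 0.53, adjusted p = 0.439, and -0.77 without knockout replicate 6). Its range inside each group exceeded the gap between them. Npm1 had 633, 630.1 and 602 CPM, against 948, 760.0 and 604 CPM, and overlapped through wild-type replicate 3 (log2 fold change -0.31, SE 0.23).

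**Figure D3:**
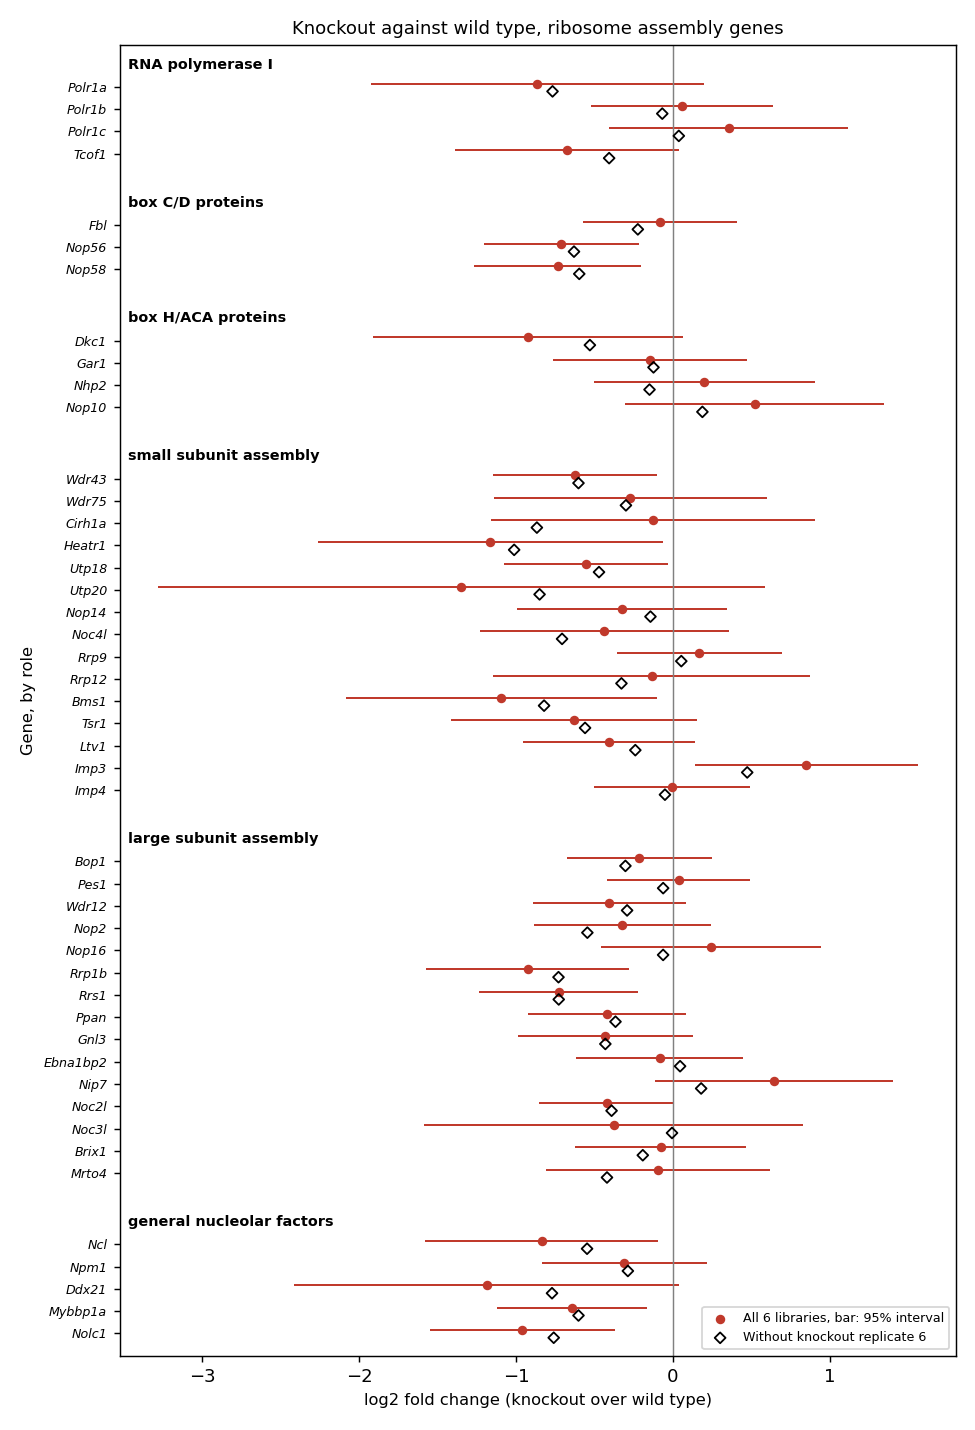
Log2 fold change of each gene, libraries labelled knockout over wild-type libraries, by role. Red points with bars give the value and its 95% interval from all 6 libraries, and open diamonds the value without knockout replicate 6, at which 40 of 46 genes lie below 0.

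Replicate 6 was the lowest of the 6 libraries in 21 members and the highest in 12, so that it stood at an end of the range in 33 of 46, where it did so in 53.4% of all genes. Without it, 40 members were fitted lower and 6 higher, the median was -0.38, and 0 passed edgeR's quasi-likelihood test, where 0.373% of all genes did, 0.0152% higher and 0.358% lower. At an unadjusted p below 0.05 there were 11 members, all lower, beside 12.8% of all genes, 7.81% lower and 4.99% higher. In this comparison of 2 against 3 libraries 22 members lay below without overlap, where this held for 16.3% of genes, and 2 above, where this held for 15.8% of genes. Polr1b, Nhp2, Pes1 and Nop16 were fitted higher with replicate 6 and lower without it, and Ebna1bp2 the other way. All of these had values between -0.15 and 0.24 in both fits.

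The members' values followed exon length in 2 libraries. Length is the exon length deposited for each gene, and which transcripts of a gene these cells make was not examined. In knockout replicate 6, members under 2000 bases had a median of 0.25 on the log2 scale relative to the mean of the other 5 libraries, and members of 4000 bases or more a median of -1.24 (15 and 10 genes). In wild-type replicate 3 the order was the opposite, with -0.24 for the short and 0.98 for the long members. Across the 46 members Spearman's rho between length and this ratio was -0.64 in knockout replicate 6 and 0.72 in wild-type replicate 3, and between -0.11 and 0.17 in the other 4 libraries. Across all 12603 genes it was -0.32 and 0.45 in the same 2 libraries. These are correlations over genes of the same libraries, which are not independent. The fitted log2 fold changes of the 46 members had a rho of -0.62 with length, with a median of -0.09 for short and -0.89 for long members. With the trend of each library on length removed, rho was -0.36 and the medians -0.21 and -0.55. The 10 long members are Polr1a, Tcof1, Heatr1, Utp20, Rrp12, Bms1, Rrp1b, Ncl, Ddx21 and Mybbp1a. As a set their values moved with length as well as with the groups, which need not hold for each gene.

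**Figure D4:**
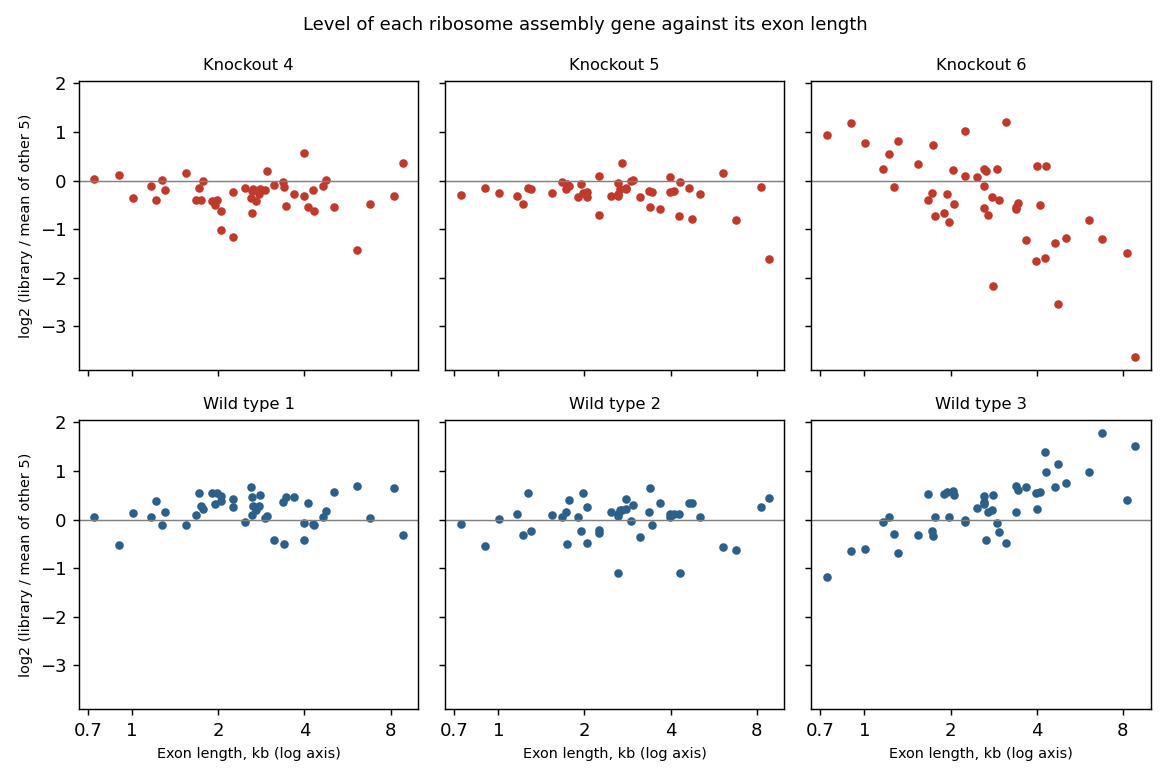
Level of each of the 46 genes in a library relative to its mean in the other 5 (log2), against exon length in kb on a log axis, for the libraries labelled knockout (top, red) and the wild-type libraries (bottom, blue). Points descend with length in knockout replicate 6 (rho -0.64), climb with it in wild-type replicate 3 (rho 0.72) and show no such slope in the other 4 libraries.

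Removing the length trend moved the whole table, whose median was then 0.18, and the members' median to -0.22. The difference between members and all genes was -0.39 with this correction and -0.38 without it. In that fit 32 members were lower and 14 higher, and Cirh1a, Rrp12, Imp4, Ebna1bp2 and Brix1 changed from a negative to a positive value. Nop56 and Nop58, both under 2000 bases, had -0.67 and -0.68, Rrs1 -0.65 and Nolc1 -0.68. Mybbp1a had -0.30 and Ncl -0.50.

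A further 120 genes of the same pathway were listed, and all 120 were tested. None passed edgeR's quasi-likelihood test, beside 0.143% of all genes, and 7 had an unadjusted p below 0.05 (5.83%), beside 11.9% of all genes. DESeq2 called 0 of them, beside 4.23% of all genes. Their median log2 fold change was -0.12, with 78 fitted lower and 42 higher, and 14 lay below the wild-type libraries without overlap (11.7%), close to the 11.3% of all genes, and 0 above. The difference between this median and that of the 46 members was not tested, and both lists were chosen with earlier results of these data known. The genes with the smallest p were Ftsj3, a methyltransferase of large subunit assembly (-0.71, SE 0.24), Utp14a of the processome (-0.86, SE 0.33), Exosc8 of the RNA exosome (-0.60, SE 0.24) and Rsl1d1 of the large subunit path (-0.67, SE 0.27), with adjusted p-values of 0.293 to 0.380. Ftsj3 had 76.1, 115 and 115 CPM in the libraries labelled knockout, against 154, 153 and 193 CPM in the wild-type libraries. Utp14a had 33.1, 27.9 and 19.6 CPM, against 56.8, 41.9 and 48.0 CPM. Exosc8 had 97.0, 97.8 and 80.6 CPM, against 162, 147 and 109 CPM. None of these 3 genes overlapped between the groups. Rsl1d1 had 219, 341 and 194 CPM, against 464, 331 and 410.1 CPM, and overlapped through knockout replicate 5. Among the roles, the other small subunit genes had a median of -0.15 over 40 genes and the other large subunit genes -0.13 over 44. The median was -0.16 over 12 polymerase I genes, 0.46 over 2 H/ACA genes, -0.09 over 8 C/D genes and -0.04 over 14 exosome genes.

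Myc, a regulator of this pathway, had 739.9, 615 and 661 CPM in the libraries labelled knockout, against 757, 725 and 826 CPM in the wild-type libraries, with overlap (log2 fold change -0.20, SE 0.20, adjusted p = 0.764). Mycn, its paralog, had 172, 337 and 152 CPM, against 67.2, 133.5 and 51.5 CPM, without overlap and in the opposite direction from most members (log2 fold change 1.39, SE 0.44, adjusted p = 0.262).

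A shared trait of the members that the choice did not use is that 8 of 46 host small nucleolar RNAs within their span on the same strand in GENCODE M21, 23 in all, where 240 of 13924 genes of the table did (17.4% and 1.72%). The hosts are Nop56 (among them Snord57 and Snord110), Nop58 (Snord11 and Snord70), Ncl (Snora75 and Snord82), Gnl3 (Snord19 and Snord69), Wdr43 (Snord53 and Snord92), Tsr1 (Snord91a), Ppan and Dkc1. These RNAs are cut from introns, and their own levels are not measured by counts over exons. All 8 hosts were fitted lower, 6 without overlap, where 11.3% of all genes lay below without overlap, with a median log2 fold change of -0.67, and -0.55 without knockout replicate 6. The other 38 members had a median of -0.29 in both fits, with 29 fitted lower and 11 below without overlap, and the difference between hosts and other members was not tested. Tsr1, an assembly factor of the small subunit, shares 34.2% of its exon bases with Srr on the opposite strand.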

How the data were processed

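The labels' protocols name the SMART-Seq v4 kit and, for library construction, Nextera XT, neither of which marks strand. Tools listed in the submitters' processing notes are STAR 2.5, Trimmomatic 0.40, edgeR 3.28.1, MultiQC 0.11.5 and FastQC, with build mm10. Neither the counting options nor any gene filter is given in the sources used here. Raw counts per gene, as the authors deposited them, were used throughout, with exon lengths and positions. The log2 FPKM values and the log2 fold changes, signed fold scores and p-values that the authors deposited were not used: 74 of the 109 genes with 0 counts in all 6 libraries carry a log2 fold change above 1 in size there.

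R 4.3.3 with edgeR 4.0.16 was run on all genes: filterByExpr with a minimum of 10 counts (12603 genes kept), TMM scaling, and the robust quasi-likelihood test, two-sided, with Benjamini-Hochberg adjustment over all genes. SE is the log2 fold change divided by the square root of F, and intervals use the t distribution of that fit. The script was tested on simulated data. All libraries differed beyond sampling noise (smallest chi-square per degree of freedom between any pair 145). Alternatives used DESeq2 1.42.0 and limma 3.58.1, other scalings and filters, thinning, a length correction and leaving out each library.

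The members and lists were chosen with earlier results of these data known. Named with values in each library are up to 4 members per role with the smallest p, the list's lowest and highest fold changes, 4 other pathway genes and, chosen after their values were seen, Imp4, Cirh1a, Wdr12 and Npm1. Replicate numbers differ between the groups.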

Additional observations from a re-analysis of the deposited data

How the results depend on the processing

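No paired analysis was possible because the labels give no pairing of mice between the groups. Over all genes, 2 were higher and 16 lower in the libraries labelled knockout. These counts were 205 and 325 with DESeq2, 145 and 289 with the likelihood ratio test, 134 and 271 with the exact test, 14 and 51 at a threshold of 0.1 and 0 and 0 with limma-voom. With quality weights 2 genes were lower, with every gene with a count kept 25, and with the length trend removed 7. Leaving out each library in turn gave 0 to 2 higher and 0 to 47 lower: 47 without knockout replicate 6, 4 without knockout replicate 5 and 0 without any other. Of the 46 members 0 were called, and 2 were lower with DESeq2, 1 with the likelihood ratio test and 1 with the exact test (Nolc1 in all 3 and Nop56 with DESeq2, at adjusted p-values from 0.0281 to 0.0489 for the log2 fold change of Nolc1 and 0.0431 for the log2 fold change of Nop56). No other alternative run called a member or any of the 120 other pathway genes. With the length trend removed the median log2 fold change was -0.22 for the members, -0.033 for polymerase I, -0.11 for the large subunit and -0.50 for the general nucleolar group. The cause of these changes was not tested, and the correction moved the median of all genes to 0.18. Leaving out each library gave medians of -0.45 to -0.30 for the members, -0.37 to -0.20 for the large subunit, -0.49 to -0.24 for the small subunit, -0.998 to -0.60 for the general nucleolar group, -0.78 to -0.60 for C/D, -0.43 to -0.20 for polymerase I and -0.14 to 0.17 for H/ACA, the only group whose median took both signs. The lowest count of a member in any library was 56, for Utp20 in knockout replicate 6, above the limit of 3 counts.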
